A study of Mus musculus with 6 samples.

Results

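The collagen genes of the mouse were examined in 6 Smart-seq2 libraries of epidermal cells, as every gene of the deposited count table whose name is Col, a number, a and a number. This rule found 44 of the 54532 genes in the table and left Col4a3bp, which is not a collagen chain, outside. They were sorted by the form of the protein into 11 fibrillar, 9 basement membrane, 9 FACIT (fibril-associated, with interrupted triple helices) and 4 transmembrane collagens, with 11 others that include the beaded-filament collagen VI and the network-forming collagen VIII.

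All cells came from the dorsal skin of 4-week-old C57BL/6 mice with no transgene or treatment, of both sexes, whose epidermis had been enzymatically lifted off the dermis and dissociated. The 3 NCAM_enriched libraries, called NCAM-enriched below, hold NCAM-positive, DAPI-negative cells: NCAM is a surface protein of Merkel cells, the touch receptor cells of the epidermis, and DAPI marks dead cells. The 3 Total_skin_DAPI_neg libraries, called bulk skin below, hold DAPI-negative cells with no selection for NCAM. Per the study's methods, NCAM-enriched cells were first held by magnetic beads on a column, then stained and sorted. Both steps used antibodies to PSA-NCAM, a form of NCAM. No such column or stain is described for bulk skin cells, so the groups also differ in handling. Each library was made from 500 sorted cells, and the labels speak of sorting in triplicates but name no separate animals, so that the p-values below measure the spread between libraries, which may be technical.

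A collagen is a triple helix of 3 alpha chains, which can be alike or differ, and each kind of chain has a gene of its own. Fibrillar collagens I, III and V form the cross-striated fibers of the dermis and are made mainly by fibroblasts. Collagen IV forms the meshwork of basement membranes, collagen VII forms the anchoring fibrils below the epidermal basement membrane, and collagen XVII, which spans the plasma membrane of basal keratinocytes, is part of the hemidesmosome that ties these cells to that membrane. FACIT collagens such as XII, XIV and XVI sit on or near larger fibrils. Epidermal keratinocytes are thus a known source of collagens VII and XVII, whereas collagens I and III mark dermal cells.

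Library totals ran from 1343190 to 3798136 counts in NCAM-enriched and from 3333753 to 4481830 in bulk skin, and 1 count was worth 0.216 to 0.773 normalised CPM (counts per 1e6 counts in the genes tested, after scaling by TMM factors). NCAM-enriched libraries 1, 2 and 3 differed more among themselves, with pairwise correlations of log2 CPM across genes of 0.596 to 0.719, than the bulk skin libraries, with 0.855 to 0.882. The 9 Merkel cell markers summed to 1529, 1602 and 451 CPM in NCAM-enriched libraries 1, 2 and 3 and to 132 to 176 CPM in bulk skin. The label Merkel cells thus had its markers in all 3 libraries, at the lowest sum in library 3, but 6 suprabasal keratinocyte markers were also above all bulk skin libraries in sum, at 12542 to 27442 against 972 to 1303 CPM. Atoh1, Sox2, Pou4f3, Krt20 and Chga of the 9 Merkel cell markers were called higher by edgeR, while Krt18, the most abundant, was not (adjusted p = 0.0771), and Krt77, Calm4, Krt10 and Flg of the suprabasal list were called higher, with Krt77 the most abundant. Bulk skin carried the markers of epidermal T cells and Langerhans cells at 3261 to 3478 and 9480 to 16516 CPM, against 3.09 to 44.6 and 24.0 to 301 CPM in NCAM-enriched, and all 6 genes of each list were called lower, with Cd3g and Cd74 the most abundant. Flg and Chga passed the filter on low counts, described below, through NCAM-enriched only. Cd3d, Cd3e, Trdc, Nkg7, Cd207, Cd68 and Csf1r passed it through bulk skin only. All of these passed through the group where they are high, so nothing is read from their calls. In libraries made from pools of cells, fewer cells of a type and less RNA per cell cannot be told apart.

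The share of each library taken by the 44 collagen genes differed most between NCAM-enriched libraries. It was 0.193% in library 1 (exact 95% interval 0.187 to 0.199), 3.41% in library 2 (3.38 to 3.44) and 0.263% in library 3 (0.258 to 0.268). In bulk skin it was 1.35% (1.34 to 1.36), 2.03% (2.01 to 2.04) and 1.20% (1.19 to 1.21). These intervals cover counting error only, since reads without molecular identifiers are not independent molecules. NCAM-enriched libraries 1 and 3 lay below every bulk skin library and library 2 above every one, so that the group means of 1.29% ± 1.84 and 1.53% ± 0.439 (SD, n = 3) were closer than the libraries behind them. Library 2 was also the shallowest, with 1343190 counts.

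**Figure D1:**
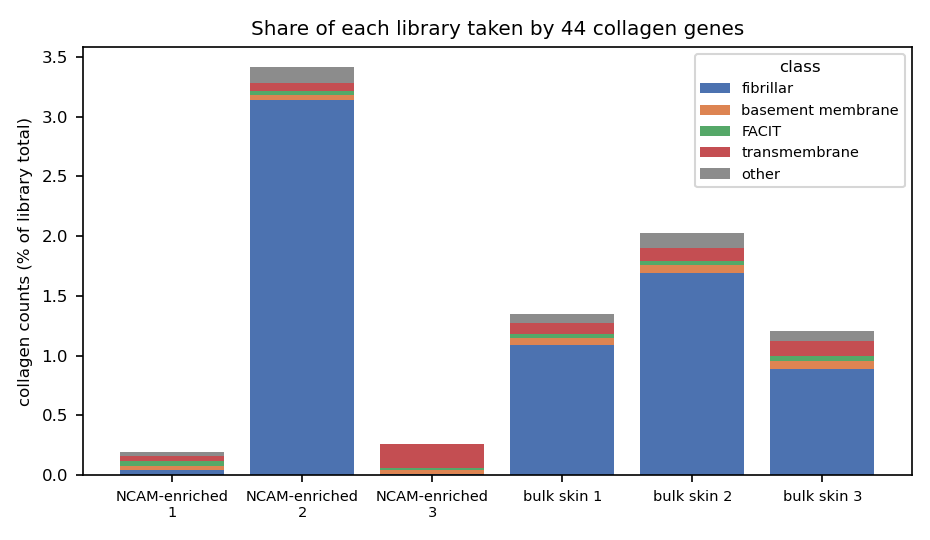
Collagen counts as a percent of the library total (vertical axis, from 0) in the 3 NCAM-enriched and 3 bulk skin libraries, stacked by collagen class. Fibrillar collagens fill most of the bar of NCAM-enriched library 2, at 3.14% of its counts, and of the bulk skin bars, while the bars of NCAM-enriched libraries 1 and 3 stay at 0.193% and 0.263%.

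The composition of the collagen counts differed as well. Fibrillar genes made 80.3%, 83.7% and 73.8% of the collagen counts in bulk skin and 92.0% in NCAM-enriched library 2, but 20.4% in library 1 and 2.75% in library 3. Col17a1 alone made 19.4% of the collagen counts in NCAM-enriched library 1, 1.31% in library 2 and 75.5% in library 3, against 4.61% to 9.35% in bulk skin. Library 3 was thus mostly a Col17a1 library as far as collagen is concerned, library 2 a collagen I and III library, and in library 1 no class held more than 23.5%.

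Of the 44 genes, 31 passed the filter on low counts and were tested with edgeR's quasi-likelihood test over 13157 genes, with Benjamini-Hochberg adjustment and a call at an adjusted p up to 0.05. With all 6 libraries, 0 of the 31 collagen genes were called, where 2.59% of all genes tested were. At an unadjusted p under 0.05, 1 collagen gene was higher in NCAM-enriched (Col16a1; 8.73% of all genes) and 5 were lower (Col5a3, Col4a1, Col18a1, Col6a6 and Col8a2; 10.2% of all genes). The median log2 fold change of NCAM-enriched over bulk skin was -1.06 over the 31 collagen genes and -0.07 over all genes tested, and 22 of the 31 were below 0. Of the 31, 15 met the filter's level in all libraries of both groups, 14 in all of bulk skin but not all of NCAM-enriched, 1 the other way round and 1 in part of each group. A gene that passes only through the group where it is high has to differ, so nothing is read from the median or from the counts over those that passed. DESeq2 on the same counts called 2 collagen genes lower, Col6a6 and Col8a2, where it called 7.05% of all genes lower.

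Separation of the libraries was counted on the same counts and the same 31 genes, so it is no independent evidence. As above, nothing is read from how many of the genes that passed the filter lie apart. All 3 NCAM-enriched libraries lay below all 3 bulk skin libraries in 8 of the 31 genes, where 19.3% of all tested genes did, and above them in 1, Col16a1, where 11.1% did. NCAM-enriched libraries 1 and 3 were both below all bulk skin libraries in 19 of the 31 genes, where 25.9% of all tested genes showed this. In 6 of these 19, Col1a1, Col1a2, Col5a2, Col23a1, Col6a2 and Col6a3, library 2 was above all bulk skin libraries, a pattern seen in 3.88% of all tested genes. Library 2 was the highest of the 6 libraries in 12 collagen genes, and in 24.0% of all tested genes.

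**Figure D2:**
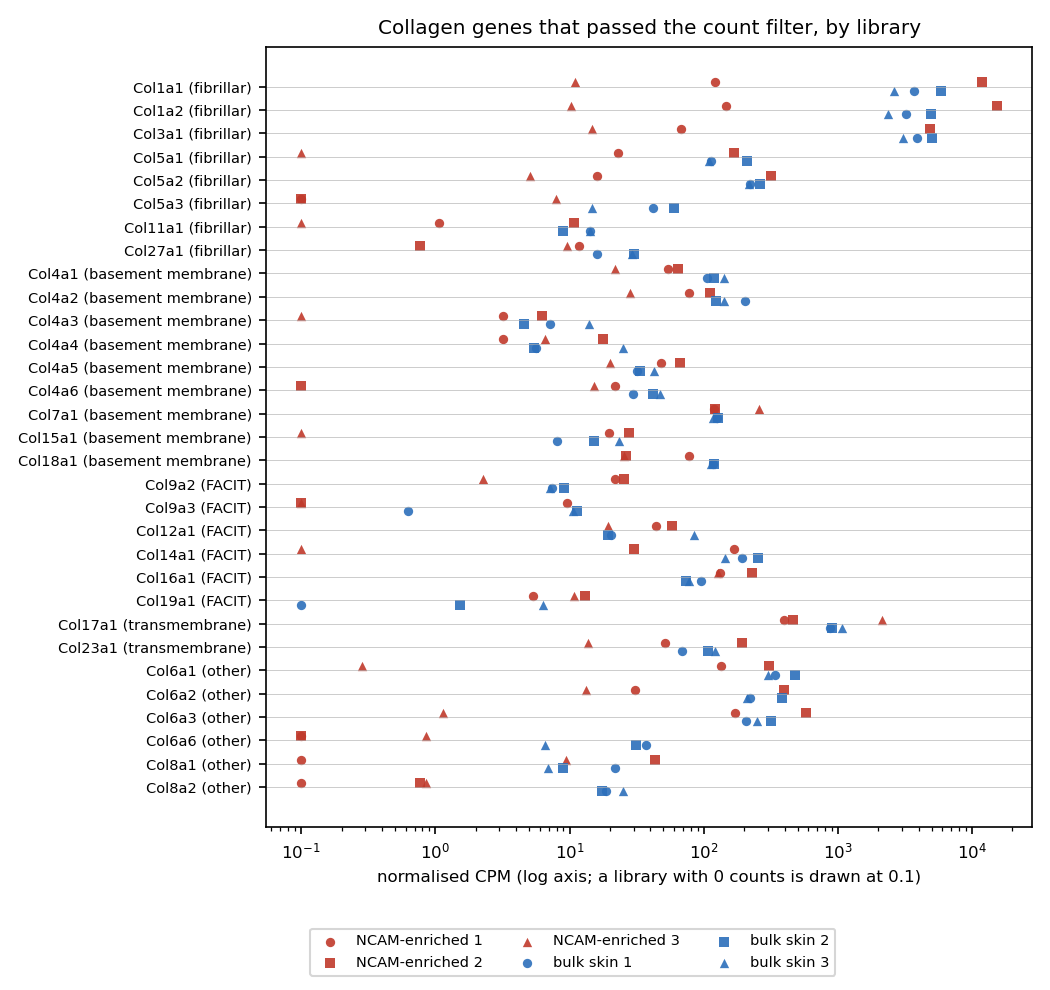
Normalised CPM (horizontal log axis, with libraries at 0 counts drawn at 0.1) of the 31 tested collagen genes in each of the 3 NCAM-enriched and 3 bulk skin libraries. For Col1a1, Col1a2 and Col3a1 the NCAM-enriched points span from 10.2 to 15390.0 CPM, while the bulk skin points stay between 2379 and 5908.

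Left without NCAM-enriched library 2, the same test called 7 of 34 collagen genes lower in NCAM-enriched and 0 higher, where it called 4.12% of 14384 genes lower and 3.09% higher. At an unadjusted p under 0.05, 1 was higher, beside 1481 of all genes. The 7 were Col1a1, Col1a2, Col3a1, Col5a2, Col6a2, Col6a6 and Col8a2. Library 2 stands out by these same collagen counts, so the calls without it are no independent evidence. Left without library 3, it called 3 lower, Col5a3, Col6a6 and Col8a2, and 2 higher, Col22a1 and Col25a1, of 34, where it called 4.90% of all genes lower and 7.35% higher. Left without library 1 or without any of the bulk skin libraries, it called 0. At an unadjusted p under 0.05, 6 of 33 were lower and 1 higher without library 1, beside 1818 and 1079 of 14222 genes. Without bulk skin library 1, 2 or 3, 3 of 36, 3 of 35 and 4 of 34 were lower. Over all genes these were 990 of 15144, 1100 of 14871 and 1036 of 14741. Higher were 2, 2 and 3, beside 1125, 1137 and 1142 of all genes. Tested over every gene with at least 1 count, 6 collagen genes were called lower (Col3a1, Col5a3, Col6a1, Col6a6, Col8a2 and Col14a1) and 1 higher (Col25a1), where 2.66% and 2.76% of 27884 genes were. There the SE of Col3a1, Col6a1 and Col14a1 was 0.46, 0.49 and 0.53, against 1.55, 1.27 and 1.33 in the filtered fit. The p-values of that fit, for these and all other genes, take in little of each gene's own spread between libraries. Nothing is read from any of its calls.

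**Figure D3:**
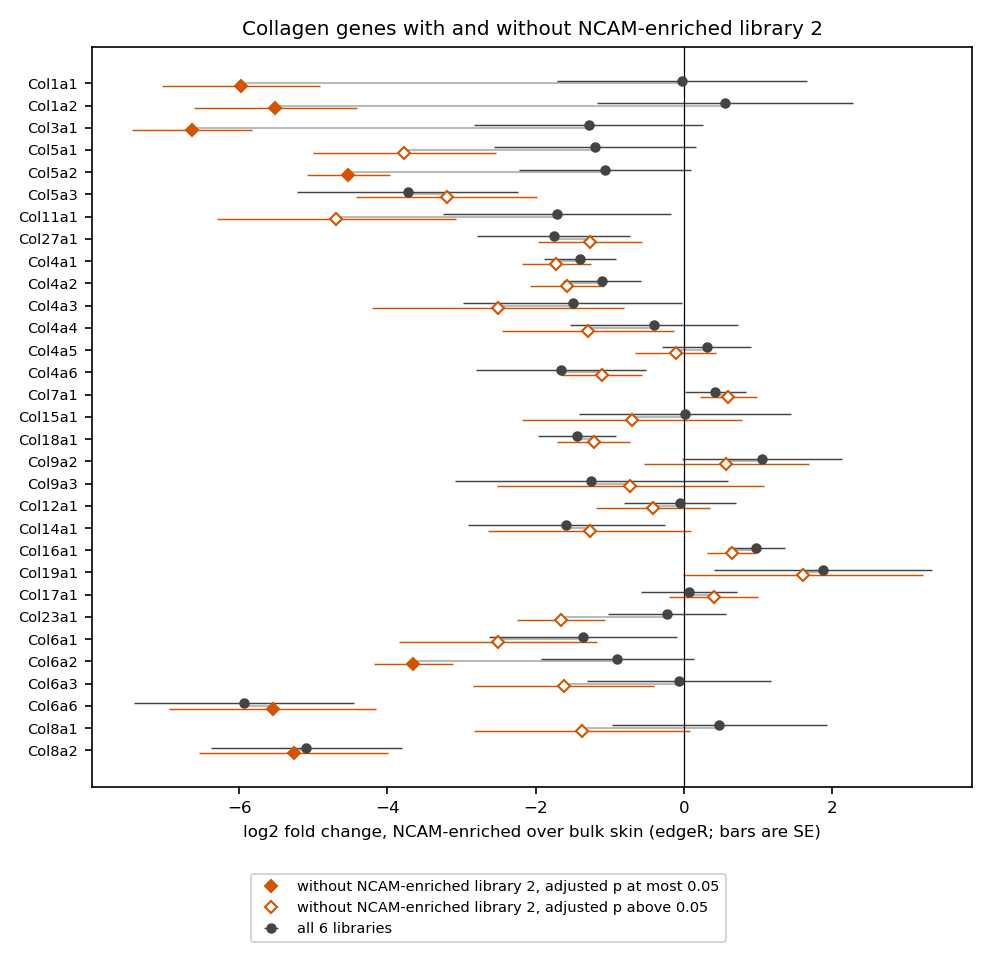
Log2 fold change of NCAM-enriched over bulk skin with its SE (horizontal axis) for the 31 tested collagen genes, with all 6 libraries (circles) and without NCAM-enriched library 2 (diamonds, filled where called). The 7 filled diamonds all lie below 0, and Col1a1 moves from -0.02 to -5.97.

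Among the fibrillar collagens, those of the dermal fiber were the most abundant collagen genes in bulk skin and in NCAM-enriched library 2, while Col17a1 was the most abundant in NCAM-enriched libraries 1 and 3. Col1a1 (chr11:94936224-94953042, plus strand, GRCm38), which encodes the alpha 1 chain of collagen I, was at 121, 11884 and 11.1 CPM in NCAM-enriched libraries 1, 2 and 3, and at 3693, 5908 and 2597 CPM in bulk skin. The groups overlapped, with NCAM-enriched library 2 highest and libraries 1 and 3 lowest. On the log2 scale, NCAM-enriched over bulk skin was at -0.02 (SE 1.69, adjusted p = 0.996, edgeR) with all libraries and -5.97 (SE 1.07, adjusted p = 0.0136) without library 2.

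Col1a2 (chr6:4504814-4541544, plus strand), which encodes the partner alpha 2 chain of collagen I, was at 148, 15390.0 and 10.2 CPM in NCAM-enriched and at 3243, 4964 and 2379 CPM in bulk skin. It followed Col1a1 in each library: library 2 was 3.10-fold above the highest bulk skin library, and the higher of libraries 1 and 3 was at 6.21% of the lowest bulk skin library. Its log2 fold change was 0.55 (SE 1.73, adjusted p = 0.909) with all libraries and -5.51 (SE 1.10, adjusted p = 0.0211) without library 2.

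Col3a1 (chr1:45311538-45349706, plus strand), the only chain of collagen III, which forms thin fibers together with collagen I, was at 67.5, 4839 and 14.8 CPM in NCAM-enriched and at 3896, 4986 and 3074 CPM in bulk skin. Here library 2 fell within the bulk skin range and the others lay far below it, at no more than 2.20% of the lowest bulk skin library. The log2 fold change was -1.28 (SE 1.55, adjusted p = 0.724), and -6.63 (SE 0.81, adjusted p = 0.00293) without library 2. Fitted with every gene of 1 count or more, it was called lower with all libraries (SE 0.46, adjusted p = 0.0260). As given above, that SE takes in little of the spread between libraries, and nothing is read from the call. These 3 genes together made 3.09% of the counts of NCAM-enriched library 2, 0.0317% and 0.00334% of those of libraries 1 and 3, and 0.847% to 1.64% of those of bulk skin.

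The proportions among these 3 genes also set library 2 apart from bulk skin. In counts, Col1a1 stood to Col1a2 as 0.772 in NCAM-enriched library 2 (exact 95% interval 0.756 to 0.789), and as 1.14, 1.19 and 1.09 in bulk skin, with intervals from 1.06 to 1.21. Col3a1 stood to Col1a1 as 0.407 in library 2 (0.395 to 0.419) and as 1.05, 0.844 and 1.18 in bulk skin. In library 1 these ratios were 0.820 (0.685 to 0.981) and 0.557 (0.445 to 0.695), on 228 Col1a1 counts, and in library 3 they were 1.08 (0.671 to 1.75) and 1.33 (0.863 to 2.07), on 39. Counts of different genes depend on their length, so a ratio is compared here only between libraries. The ratios of libraries 1 and 2 lay below all bulk skin ratios in both cases, and the intervals of library 3 overlapped those of bulk skin.

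The sequence before the start of Col3a1, and that of Col6a2, a collagen VI gene described below, are shown because both were called lower without NCAM-enriched library 2. They are from RefSeq (GRCm38.p6), whose promoter table held 38 windows for 35 of the 44 genes, and are given 5′ to 3′ in the direction of the gene and end directly before its GENCODE start, at chr1:45311288-45311537 on the plus strand for Col3a1 and chr10:76623631-76623880 on the minus strand for Col6a2. Capitals mark matches to the letters TATAAA of the TATA box, to those of the CCAAT box and to GGGCGG of the GC box, each searched on both strands, so that a match on the reverse strand is also in capitals.
Col3a1: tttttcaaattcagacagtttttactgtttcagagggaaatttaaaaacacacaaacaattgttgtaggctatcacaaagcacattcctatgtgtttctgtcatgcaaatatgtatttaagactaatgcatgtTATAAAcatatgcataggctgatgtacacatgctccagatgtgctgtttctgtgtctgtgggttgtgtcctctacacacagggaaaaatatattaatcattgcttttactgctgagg
Col6a2: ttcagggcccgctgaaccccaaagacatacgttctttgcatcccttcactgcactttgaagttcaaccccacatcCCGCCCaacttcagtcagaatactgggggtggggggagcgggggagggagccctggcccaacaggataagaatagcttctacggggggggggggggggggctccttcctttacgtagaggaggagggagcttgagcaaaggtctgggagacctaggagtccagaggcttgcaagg
In the stretches shown, Col3a1 holds 1 TATAAA and Col6a2 holds 1 GGGCGG, on the reverse strand. Over the whole collagen windows, 13.2% hold the TATA box, 34.2% the CCAAT box and 60.5% the GC box, beside 13.6%, 37.4% and 35.7% of all 32851 windows of the table. The whole windows also hold bases after the start and in exons, which the stretches shown leave out, so these shares do not describe those stretches. These are matches of letters, not sites of binding.

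Collagen V is a minor fibrillar collagen that is built into collagen I fibers. Col5a2 (chr1:45374321-45503282, minus strand), whose 3′ end faces that of Col3a1 at 24614 bases, was at 15.9, 315 and 5.11 CPM in NCAM-enriched and at 219.8, 261 and 216 CPM in bulk skin. Library 2 was above and libraries 1 and 3 were below all bulk skin libraries. Its log2 fold change was -1.06 (SE 1.17, adjusted p = 0.690) with all libraries and -4.53 (SE 0.56, adjusted p = 0.00294) without library 2. Col5a1 had the same order of NCAM-enriched libraries, at 22.8, 168 and 0 CPM, but library 2 stayed within the bulk skin range of 110.2 to 209 CPM (adjusted p = 0.704, and 0.103 without library 2).

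Col5a3 did not follow its partners. It was at 0, 0 and 7.95 CPM in NCAM-enriched and at 42.2, 59.7 and 14.8 CPM in bulk skin. All NCAM-enriched libraries were below all bulk skin libraries, and library 2, the richest in Col5a1 and Col5a2 among them, had 0 Col5a3 counts. The log2 fold change was -3.73 (SE 1.49, adjusted p = 0.218). Library 3 held all 28 Col5a3 counts of NCAM-enriched. Without it, 466 bulk skin counts stood against 0 and the gene was called lower (adjusted p = 0.0306). With 3 counts as the floor, NCAM-enriched libraries 1 and 2 were at least 42.9-fold lower, which is no bound for the whole group. Without library 3 the gene passed the filter through bulk skin only, where it is high. Nothing is read from this call or this fold.

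The remaining fibrillar genes were low. Col11a1 (at most 14.3 CPM in any library) and Col27a1 (at most 30.5) were tested and not called, and Col27a1 was lower in all NCAM-enriched libraries, at 0.773 to 11.7 against 16.1 to 30.5 CPM. Col11a2, a chain of the cartilage collagen XI, was at 23.9, 0 and 19.0 CPM in NCAM-enriched and at 0, 0 and 2.19 CPM in bulk skin and did not pass the filter. Col2a1, the cartilage fiber collagen, had 13 counts in NCAM-enriched, 11 of them in library 1, and 0 in bulk skin, and Col24a1 had 13 counts in 1 bulk skin library.

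The basement membrane collagens made 0.0401%, 0.0426% and 0.0347% of the counts in libraries 1, 2 and 3 and 0.0613%, 0.0610% and 0.0702% in bulk skin. The group means were 0.0391% ± 0.0040 and 0.0642% ± 0.0052 (SD, n = 3), and the groups did not overlap. In NCAM-enriched library 3, Col7a1 made 904 of the 1318 counts, and the other 8 genes made 0.0288%, 0.0309% and 0.0109% of libraries 1, 2 and 3 and 0.0479% to 0.0578% of bulk skin. None of the 9 genes was called by edgeR, with all libraries or without any of the 6, nor by DESeq2, while 2 had an unadjusted p under 0.05 with all libraries by edgeR.

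Col4a1 and Col4a2, the chains of the common collagen IV helix, lie head to head on chromosome 8 and overlap by 22 bases at their starts. Col4a1 was at 54.2, 64.1 and 21.8 CPM in NCAM-enriched and at 106, 119.5 and 143 CPM in bulk skin; NCAM-enriched over bulk skin gave -1.40 on the log2 scale (SE 0.49, unadjusted p = 0.0185, adjusted p = 0.157). Col4a2 was at 78.1, 112 and 28.4 CPM in NCAM-enriched and at 204, 124 and 141 CPM in bulk skin, which gave -1.11 on the log2 scale (SE 0.53, adjusted p = 0.302). Both were lower in every NCAM-enriched library than in every bulk skin library; neither was called, and library 2 did not stand above bulk skin as it did for collagen I.

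The other collagen IV genes form head-to-head pairs too, Col4a4 and Col4a3 with 71 bases between them on chromosome 1 and Col4a6 and Col4a5 with 1308 on chromosome X. Col4a3 and Col4a4, known from the kidney filter, stayed at or below 24.9 CPM. Col4a5 was at 20.1 to 66.4 CPM in NCAM-enriched and 31.7 to 42.8 CPM in bulk skin, which overlap. Its neighbour Col4a6 was at 21.8, 0 and 15.3 CPM in NCAM-enriched and at 29.5, 41.7 and 47.4 CPM in bulk skin, without overlap (adjusted p = 0.495).

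Col7a1 (chr9:108953586-108984875, plus strand), the gene of the anchoring fibrils, was the most abundant member of the class by mean CPM over the 6 libraries, although Col4a2 was above it in bulk skin by mean. It was at 120.1, 121 and 257 CPM in NCAM-enriched and at 126, 128 and 118 CPM in bulk skin. Libraries 1 and 2 were level with bulk skin and library 3 was 2.01-fold above the next library. The log2 fold change was 0.43 (SE 0.41, adjusted p = 0.636), and -0.10 (adjusted p = 0.882) without library 3. Col18a1, a basement membrane collagen whose end fragment is endostatin, was at 77.6, 26.3 and 25.3 CPM in NCAM-enriched and at 117, 120.0 and 114 CPM in bulk skin (log2 fold change -1.44, SE 0.53, adjusted p = 0.181). Its relative Col15a1 was at 0 to 27.8 CPM in NCAM-enriched and 8.07 to 23.3 CPM in bulk skin and did not separate the groups.

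Among the transmembrane collagens, Col17a1 (chr19:47646344-47692094, minus strand), also known as the BP180 antigen of hemidesmosomes, was at 397, 464 and 2141 CPM in NCAM-enriched and at 879, 906 and 1069 CPM in bulk skin. NCAM-enriched libraries 1 and 2 were below and library 3 was above every other library. The group means, 1001 ± 988 and 951 ± 103 CPM (SD, n = 3), did not differ beyond this spread (log2 fold change 0.07, SE 0.65, adjusted p = 0.969). Without library 3 the log2 fold change was -1.21 (adjusted p = 0.0711) and without library 2 it was 0.41 (adjusted p = 0.742).

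The window before the start of Col17a1 (chr19:47692095-47692292, read on the minus strand) and that of Col7a1 (chr9:108953336-108953585, plus strand) are shown in the same way, since these keratinocyte collagens were both highest in NCAM-enriched library 3.
Col17a1: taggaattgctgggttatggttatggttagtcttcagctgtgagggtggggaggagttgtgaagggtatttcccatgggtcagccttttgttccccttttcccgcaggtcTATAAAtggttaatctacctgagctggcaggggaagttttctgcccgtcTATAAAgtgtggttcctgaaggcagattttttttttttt
Col7a1: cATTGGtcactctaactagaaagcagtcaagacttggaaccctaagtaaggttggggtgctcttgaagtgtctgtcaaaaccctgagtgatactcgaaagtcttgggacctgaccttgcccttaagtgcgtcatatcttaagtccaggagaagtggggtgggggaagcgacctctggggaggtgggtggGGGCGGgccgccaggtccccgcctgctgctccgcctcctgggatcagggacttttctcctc
Col17a1 holds 2 TATAAA here, and Col7a1 holds 1 CCAAT, on the reverse strand, and 1 GGGCGG.

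The other transmembrane genes had smaller values. Col23a1 was at 51.0, 192 and 13.6 CPM in NCAM-enriched and at 69.2, 107 and 122 CPM in bulk skin, again with library 2 above and libraries 1 and 3 below bulk skin (adjusted p = 0.920). Col25a1, first known from brain as the source of a peptide in amyloid plaques, was at 7.97, 40.9 and 0 CPM in NCAM-enriched and had 0 counts in all bulk skin libraries. Its 68 counts against 0 did not pass the filter with all libraries, and put it at least 38.9-fold higher in NCAM-enriched with 3 counts in bulk skin as the floor. Library 2 held 53 of the 68 counts and library 3 held 0, so this fold does not describe library 3. Col25a1 was called without library 3 and in the fit over every gene with at least 1 count. Without library 3 it passed the filter through NCAM-enriched only, where it is high, so nothing is read from that call. As for Col3a1, nothing is read from the call in the other fit. Col13a1 was at 22.8 CPM in NCAM-enriched library 1 and at 0 to 2.59 CPM in the other libraries.

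The FACIT collagens summed to 0.0363%, 0.0348% and 0.0183% of the counts in NCAM-enriched and 0.0307%, 0.0383% and 0.0356% in bulk skin. NCAM-enriched library 3 was below all bulk skin libraries, and libraries 1 and 2 lay within their range. Col16a1 (chr4:130047840-130099283, plus strand), a collagen of the zone near the basement membrane, was the only tested collagen gene that was higher in every NCAM-enriched library than in every bulk skin library. It was at 132, 228 and 129 CPM in NCAM-enriched and at 95.9, 73.7 and 77.6 CPM in bulk skin. The log2 fold change was 0.98 (SE 0.39, unadjusted p = 0.0325, adjusted p = 0.212), and over the 11 alternatives its adjusted p ran from 0.121 to 0.482.

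Col14a1, found on dermal fibrils, was the most abundant FACIT gene in bulk skin. It was at 167, 30.1 and 0 CPM in NCAM-enriched and at 194, 252 and 144 CPM in bulk skin, so that library 1, not library 2, came up to bulk skin (log2 fold change -1.59, SE 1.33, adjusted p = 0.588, and 0.0287 with an SE of 0.53 when genes down to 1 count were fitted). As for Col3a1, nothing is read from the latter. Col12a1, another fibril-associated collagen, was at 44.1, 57.9 and 19.3 CPM in NCAM-enriched and at 20.5, 19.5 and 85.0 CPM in bulk skin, with 1 high bulk skin library. Col9a2, Col9a3 and Col19a1 stayed at or below 25.5 CPM and were not called. Col20a1 was seen almost only in NCAM-enriched library 3, at 34.9 CPM against at most 4.11 elsewhere. Col22a1, known from tissue junctions, had 7, 9 and 2 counts in NCAM-enriched and 0 in bulk skin, at least 10.3-fold higher with the same floor. It too passed the filter without library 3 through NCAM-enriched only, and nothing is read from its call there.

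Of the other collagens, collagen VI was the most abundant. It forms beaded filaments around cells, from the chains Col6a1 and Col6a2 with, mostly, Col6a3. Col6a1 was at 134, 304 and 0.284 CPM in NCAM-enriched and at 342, 476 and 299 CPM in bulk skin. Col6a2 (chr10:76595762-76623630, minus strand) was at 30.8, 394 and 13.3 CPM in NCAM-enriched and at 223, 380.0 and 209 CPM in bulk skin. Col6a3 was at 171, 575 and 1.14 CPM in NCAM-enriched and at 208, 318 and 251 CPM in bulk skin. In all of them library 2 was the highest and library 3 the lowest NCAM-enriched library, and none of them was called among the genes that passed the filter (adjusted p = 0.629, 0.707 and 0.986), while Col6a1 was called lower when genes down to 1 count were fitted (SE 0.49, adjusted p = 0.0353). As for Col3a1, nothing is read from the latter call. Without library 2, Col6a2 was at -3.65 on the log2 scale (SE 0.53, adjusted p = 0.00614), and Col6a1 and Col6a3 were not called.

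Col6a6 (chr9:105687809-105828160, minus strand), which encodes an alternative to the Col6a3 chain, and Col8a2 (chr4:126286793-126314330, plus strand), a chain of the network-forming collagen VIII, had the lowest log2 fold changes of the tested collagen genes with all libraries. Col6a6 was at 0, 0 and 0.851 CPM in NCAM-enriched and at 37.3, 31.1 and 6.58 CPM in bulk skin. Its 3 counts in NCAM-enriched against 288 in bulk skin gave a bulk skin level 56.0-fold higher (exact 95% interval 19.0 to 273, for counting error only). The log2 fold change was -5.94 (SE 1.49, adjusted p = 0.0697), with an adjusted p of 0.0483 without library 2, 0.0416 without library 3 and 0.000884 by DESeq2. Neither Col6a6 nor Col8a2 reached the filter's level in any NCAM-enriched library: both passed through bulk skin only, where they are high, so nothing is read from their calls.

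Col8a2 was at 0, 0.773 and 0.851 CPM in NCAM-enriched and at 18.6, 17.5 and 24.9 CPM in bulk skin. All 3 NCAM-enriched libraries were near 0 and the bulk skin libraries close together, 4 counts against 232. For this gene the log2 fold change was -5.10 (SE 1.29, adjusted p = 0.0711), with an adjusted p of 0.0426 without library 2, 0.0437 without library 3 and 0.000408 by DESeq2. Its partner Col8a1 did not share this: it was at 0, 43.3 and 9.36 CPM in NCAM-enriched and at 21.7, 8.86 and 6.85 CPM in bulk skin. The remaining 5 genes, Col6a4, Col6a5, Col10a1, Col26a1 and Col28a1, were not tested and stayed at or below 7.14 CPM, and Col28a1 had 0 counts in all 6 libraries.

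Levels between genes can be compared only per length. By exonic length, bulk skin held Col1a1 at 1734 ± 839 TPM (counts scaled by length and library, SD, n = 3), Col3a1 at 1129 ± 340.1, Col1a2 at 794 ± 350.1, Col17a1 at 439 ± 74.5 and Col6a1 at 237 ± 75.7 TPM. In NCAM-enriched, Col17a1 was at 443 ± 436 TPM. The order of the top genes depends on the length used, since the exons of Col1a2 and Col3a1 sum to 12426 and 9816 bases but their principal transcripts hold 5348 and 5564: by the latter length, Col1a1 was at 1919, Col1a2 at 1844 and Col3a1 at 1992 TPM in bulk skin.

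The markers of other cell types were set beside these values. The 10 fibroblast markers, of which Sparc, Dcn and Fbn1 were the most abundant, summed to 595, 9649 and 136 CPM in NCAM-enriched libraries 1, 2 and 3 and to 6107, 7150 and 4374 CPM in bulk skin. The sum of library 2 rests on Sparc: the other 9 markers summed to 144, 1758 and 47.7 CPM in NCAM-enriched and to 3307, 3339 and 2910 CPM in bulk skin, so that without it library 2 was the highest NCAM-enriched library but below all of bulk skin. Sparc, a collagen-binding matrix protein, was at 7891 CPM in NCAM-enriched library 2 against 451 and 88.0 in libraries 1 and 3 and 1464 to 3810 in bulk skin, whereas Dcn, a proteoglycan on collagen fibers, was at 774 CPM in library 2 and at 1925 to 2113 in bulk skin. Fbn1, a microfibril protein, was at 563 CPM in library 2 and at 149 to 319 in bulk skin. Pdgfra, Fbln1 and Clec3b were above bulk skin in library 2 too, at 71.1, 141 and 34.0 CPM. Their bulk skin ranges were 30.7 to 41.0, 54.3 to 58.8 and 16.45 to 21.2 CPM. Library 2 was the highest of the 6 libraries in 5 of the 10 markers. Mfap5, Lum and Dpt were at 37.9, 44.8 and 91.2 CPM in library 2, below the 278 to 420, 240 to 344 and 102 to 196 CPM of bulk skin. Twist2 was at 0 in all NCAM-enriched libraries, Lum was at 0 in libraries 1 and 3, and of the 10 edgeR called 0 (3 had an unadjusted p under 0.05, all lower) and DESeq2 1, lower. The 6 basal keratinocyte markers, led by Krt15, summed to 9282, 6551 and 28347 CPM in NCAM-enriched and to 10665 to 15096 CPM in bulk skin, and library 3 was highest for them as for Col17a1 and Col7a1. The part of either list in the collagen values was not tested.

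Dermal papilla markers, led by Sostdc1, summed to 947 to 1465 CPM in NCAM-enriched and 1141 to 1568 in bulk skin. Without Sostdc1 they summed to 414, 862 and 11.1 CPM in NCAM-enriched libraries 1, 2 and 3 and to 495 to 683 in bulk skin, with library 2 above and libraries 1 and 3 below all bulk skin libraries, as for Col1a1 and Col1a2. Their part in the collagen values was not tested. Vascular and mural markers, led by Myh11, summed to 17.0 to 203 and 149 to 187 CPM. Schwann cell markers summed to 42.5 to 299 and 109 to 173 CPM, with Erbb3 the most abundant by mean over the 6 libraries and Mbp and Sox10 above it in bulk skin. Skeletal muscle markers summed to 282, 160 and 11.9 CPM in NCAM-enriched and 28.8 to 33.7 CPM in bulk skin. Acta1, the actin of muscle fibers, made nearly all of this in libraries 1 and 2, at 264, 160 and 6.24 CPM, and had 0 counts in bulk skin (called higher, adjusted p = 0.0370), while Tnni2, a troponin of fast muscle, had 0 counts in NCAM-enriched and was at 18.4 to 26.9 CPM in bulk skin (called lower, adjusted p = 0.0470). Acta1 passed the filter through NCAM-enriched only and Tnni2 through bulk skin only, where each is high. Nothing is read from these calls. Mylpf, the next by level, was at up to 16.5 CPM and was not called. Hair follicle markers, led by Krt17, summed to 6287 to 28802 CPM in NCAM-enriched and 2205 to 2854 in bulk skin, with Krt17 called higher and Lgr6 lower. Without Krt17 they summed to 5221, 1373 and 11040.5 CPM in NCAM-enriched libraries 1, 2 and 3. In bulk skin that sum was 1225 to 1622 CPM, so library 2 lay within the bulk skin range. The median log2 fold change of the whole list was -0.50.

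**Figure D4:**
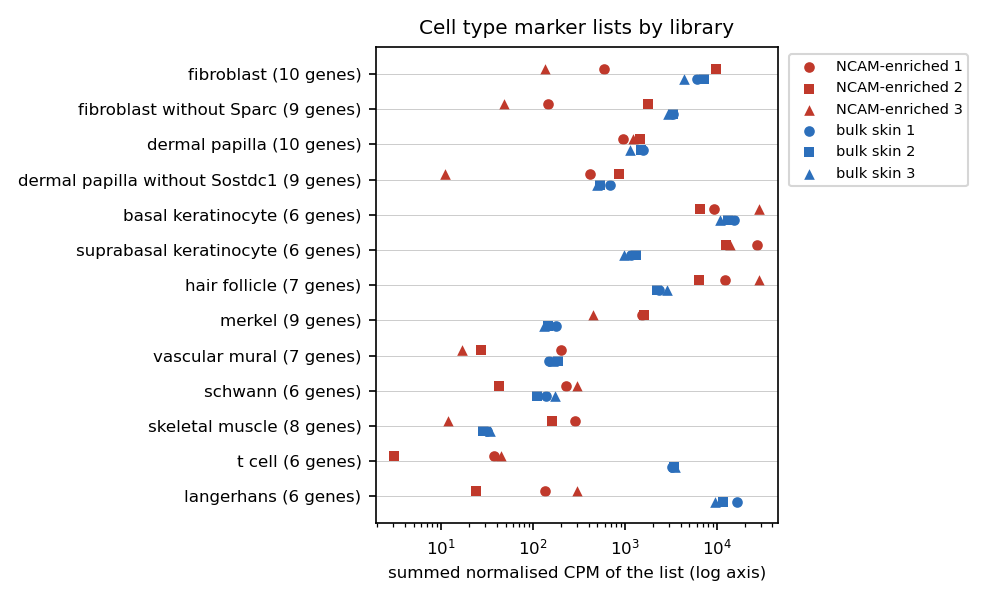
Summed normalised CPM of 11 cell type marker lists, of fibroblast markers without Sparc and of dermal papilla markers without Sostdc1 (horizontal log axis) in the 3 NCAM-enriched and 3 bulk skin libraries. The fibroblast list is at 9649 CPM in NCAM-enriched library 2 and at 595 and 136 CPM in libraries 1 and 3, but at 1758 CPM in library 2 without Sparc, below the bulk skin libraries, and the basal keratinocyte list is highest in library 3.

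The genes that make, cut, bind and break down collagen were taken as 5 lists of 58 genes, 50 of which were tested. With all libraries 0 were called higher and 1 lower, Mmp9, where 1.55% of all genes were called lower. Mmp9, a secreted protease that cleaves denatured collagen and collagen IV, had 0 counts in all NCAM-enriched libraries and was at 59.6, 66.8 and 34.3 CPM in bulk skin, at least 122-fold lower in NCAM-enriched (adjusted p = 0.0178). Without bulk skin library 1, 2 or 3 it was not called, with an adjusted p of up to 0.171 over the alternatives. It passed the filter through bulk skin only, where it is high, so nothing is read from its call. The Langerhans cell list was low in the same libraries, as given above, and its part in the Mmp9 value was not tested.

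Ddr1, a receptor tyrosine kinase that binds collagen, was the most abundant receptor gene in NCAM-enriched and just missed the threshold, while Itgb1, a chain of the collagen-binding integrins, was above it in each bulk skin library, at 272, 227 and 261 CPM. Ddr1 was at 362, 285 and 471 CPM in NCAM-enriched and at 89.7, 144 and 97.6 CPM in bulk skin, without overlap (log2 fold change 1.75, SE 0.38, adjusted p = 0.0505). Of the 17 tested modifying enzymes and chaperones, the 10 of procollagen cleavage and crosslinking and the 8 hemidesmosome partners, 0 were called by edgeR and 0 had an unadjusted p under 0.05, and DESeq2 called only Ddr1 and Mmp9 of all 5 lists. Their most abundant members were P4hb, at 395 ± 220 against 532 ± 16.2 CPM, Pcolce, at 115 ± 162 against 195 ± 65.2 CPM, and Dst, at 905 ± 386 against 723 ± 78.6 CPM (SD, n = 3).

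Left without NCAM-enriched library 2, 5 of 51 genes of these lists were called lower and 1 higher, Ddr1, where 4.12% of all genes were called lower and 3.09% higher. The lower genes were Serpinh1, the collagen-specific chaperone HSP47, Pcolce2, which speeds removal of the procollagen C end, Loxl2, a crosslinking lysyl oxidase, Timp2, a protease inhibitor, and Mmp9. Serpinh1 was at 57.4, 615 and 38.6 CPM in NCAM-enriched and at 203, 288 and 185 CPM in bulk skin, and Loxl2 at 0, 204 and 0.284 against 22.7, 27.5 and 14.3 CPM. Both were thus above all bulk skin libraries in library 2 and below them in libraries 1 and 3, as Col1a1 and Col1a2 were. Without library 2, Loxl2 and Mmp9 passed the filter through bulk skin only, where they are high, so nothing is read from these 2 calls. Timp2, the most abundant gene of the breakdown list in bulk skin, lay within the bulk skin range in library 2, at 362 against 315 to 495 CPM, and below it in libraries 1 and 3, at 123 and 121 CPM. In NCAM-enriched, Mmp14, a membrane-bound collagen protease, had the higher mean, at 256 against 202 CPM for Timp2. Without library 3, Mmp9, Itga11 and Adamts14 were called lower and Ddr1 higher, where 4.90% and 7.35% of all genes were. Itga11 and Adamts14 had 0 counts in NCAM-enriched libraries 1 and 2 and were at 25.5 and 20.4 CPM in library 3, so that without it they too passed through bulk skin only and nothing is read from their calls.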

How the data were processed

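Smart-seq2 libraries were made by the authors from 500 sorted epidermal cells each, and what was deposited is a table of raw counts of reads, 1 row for each gene, with no normalization. Per the study's methods, adapter and poly(A) sequences were clipped with bbduk, abundant sequences were removed with bbmap, reads were aligned to GRCm38 with STAR and counted with featureCounts; neither the release of the annotation nor a strand setting is given in the sources used here. Smart-seq2 does not mark strand, so reads of overlapping genes on opposite strands cannot be told apart; antisense names were left out. Where reads fall on shared exons, at most 6.07% of the exonic bases of a collagen gene (Col9a3) are concerned.

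The 6 libraries were grouped by their titles. Counts were fitted with edgeR 4.0.16 (quasi-likelihood test, TMM factors, filterByExpr by group, 13157 genes of 54532, 2 groups, R 4.3.3), with two-sided p-values adjusted by Benjamini-Hochberg over all genes tested. DESeq2 1.42.0, which the study used, was an alternative, beside its size factors in edgeR, library totals only, all genes with at least 1 count, the replicate number as a block and each library left out. Gene positions and exonic lengths came from GENCODE M21 (GRCm38), which held 54495 of the gene IDs. A floor is 3 counts over a group, and intervals are exact at 95%.

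The collagen genes, the 5 collagen classes, the 5 lists of collagen-related genes and the 11 cell type marker lists were chosen with earlier results of these data known. Named were every collagen gene that passed the filter or reached 20 CPM in any library, with values in all libraries for those called with all libraries or without an NCAM-enriched library and for the most abundant of each class, the called (up to 4 by p) and the most abundant genes of the collagen-related lists, the most abundant marker of each cell type list (up to 3 for fibroblast and muscle), and further called markers, Mfap5, Dpt, Mbp, Sox10, Twist2, Lum, Itgb1, Mmp14, Loxl2, Serpinh1, Pcolce2 and the rare collagens of lower level, which were named after their values were seen. Pdgfra, Fbln1 and Clec3b were also named after their values were seen.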

Additional observations from a re-analysis of the deposited data

How the results depend on the processing

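The calls on collagen genes depended on which libraries entered. With all 6 libraries edgeR called 0 higher and 0 lower (1 higher and 5 lower at an unadjusted p under 0.05); tested over all genes with at least 1 count it called 1 higher and 6 lower, and DESeq2 called 0 higher and 2 lower, while DESeq2's size factors in edgeR and library totals only gave 0 and 0. Leaving out each library in turn gave 0 to 2 higher and 0 to 7 lower, with 7 lower without NCAM-enriched library 2. Over all genes, 137 higher and 204 lower became 769 and 741 when all genes of at least 1 count were fitted and 661 and 928 by DESeq2, and 0 to 1099 higher and 13 to 733 lower with each library left out. Of the collagen-related lists, 0 higher became 1 (Ddr1) under DESeq2's size factors in edgeR, under the fit to every gene with a count and by DESeq2, and leaving out a library gave 0 to 1 higher and 0 to 5 lower. Where a library is left out, fewer samples enter and the count filter changes.

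Directions of log2 fold changes turned for genes near 0. Col1a1 (-0.02) was at 0.034 with DESeq2's size factors in edgeR and 0.034 by DESeq2, Col15a1 (0.01) at -0.052 with library totals only and -0.15 when genes down to 1 count were fitted, and Col17a1 (0.07) at -0.037 with library totals only. With each library left out, values ran from -5.97 to 0.51 for Col1a1, -5.51 to 1.09 for Col1a2, -1.29 to 0.64 for Col4a4, -0.11 to 0.59 for Col4a5, -0.10 to 0.61 for Col7a1, -0.70 to 0.54 for Col15a1, -0.46 to 0.93 for Col12a1, -1.21 to 0.46 for Col17a1, -1.66 to 0.20 for Col23a1, -1.62 to 0.44 for Col6a3 and -1.37 to 1.06 for Col8a1. The causes were not tested beyond which library was left out.

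Whether the replicate numbers pair the libraries is not given by the labels. Same-numbered libraries correlated in their deviations from the group means at 0.0226, 0.00025 and -0.00436, which cannot exclude a shared animal or sort. With the replicate block, 50 genes were called higher and 92 lower, with 0 collagen genes called and 0 of the collagen-related genes lower. At an unadjusted p under 0.05, 0 collagen genes were higher and 9 lower, beside 742 and 1292 of 13157 genes. The log2 fold change turned for Col1a2 (-4.12), Col15a1 (-0.48), Col12a1 (0.29), Col17a1 (-0.39) and Col8a1 (-0.28).

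By the principal transcript, a length chosen after seeing the data, the bulk skin means were 1919 TPM for Col1a1, 1844 TPM for Col1a2 and 1992 TPM for Col3a1. In the shallowest library 1 count was 0.773 CPM, so that differences between genes near that level were not detectable.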
